A study of Mus musculus with 12 samples.

Results

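The receptors for fibroblast growth factors (FGFs) and the genes that limit or report their signal were followed in cultured mouse oligodendrocyte precursor cells (OPCs), which were grown with basic FGF (bFGF) throughout. The set was given as a list of names and holds 10 of the 55536 genes in the annotation: the receptor genes Fgfr1, Fgfr2, Fgfr3 and Fgfrl1, and the feedback genes Spry1, Spry2, Spry4, Spred1, Dusp6 and Etv5. All 10 passed the filter on low counts. Total RNA was sequenced from OPCs of P4 to P6 pups, taken from pooled brains and enriched either through GFP under Sox10 or with magnetic beads against CD140a. In these mice a Sox10-driven Cre switches on GFP across the oligodendrocyte lineage, on a mixed C57BL/6 and CD1 background. Every culture, controls included, received PDGFaa (10 ng/ml) and bFGF (20 ng/ml) by the labels. The methods of the study give higher concentrations of both, so the dose of bFGF is uncertain. Ctr-OPCs got nothing more, Dexa-treated OPCs got dexamethasone, a synthetic glucocorticoid (1 µM, 48 h), and IFN-γ-treated OPCs got the cytokine IFN-γ (100 ng/ml, 48 h). The labels give each group 4 replicates from different litters, and also name EAE, an autoimmune model of demyelination, as the mouse model of every sample, although the culture protocol describes no immunization. Replicate numbers paired the libraries across groups and are called litters 1 to 4 here. That libraries of the same number came from 1 litter is assumed and is not stated. The deposited table of Dexa litter 3 was incomplete, so the fits over all genes held 11 libraries with 19209059 to 52074655 reads in genes.

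FGF receptors are tyrosine kinases that pass the signal through the adaptor Frs2, RAS and the kinase ERK to the nucleus. ERK then switches on genes that damp the same pathway: the Sprouty proteins (Spry1, Spry2, Spry4) act at the level of RAS and RAF, Spred1 recruits the RAS inhibitor neurofibromin, and Dusp6 removes phosphate from ERK. Etv5 is an ETS transcription factor that FGF signalling induces, and Fgfrl1 binds FGFs but lacks a kinase domain. In OPCs, FGF together with PDGF keeps the cells dividing and holds back their differentiation.

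The OPC identity of the libraries was checked with 12 marker genes. Their summed level was 1018 to 2274 TPM (reads per transcript length, scaled to a fixed total per library) in Ctr-OPCs, 1197 to 2401 in Dexa-treated OPCs and 835 to 1784 in IFN-γ-treated OPCs. Litter 1 was the lowest in each group. Of 12 microglia markers, 8 stayed below 10 reads in every library, and the summed level of all 12 was 3.03 to 6.47 TPM. Astrocyte markers summed to 156 to 325 TPM in Ctr-OPCs, 313 to 485 in Dexa-treated OPCs and 280 to 447 in IFN-γ-treated OPCs. Aldoc (61.5 to 265 TPM over all libraries) and Slc1a3 (43.6 to 146 TPM) held most of these sums. In Ctr-OPCs, Gfap was at 0.0329 to 0.327 TPM and Aldh1l1 at 4.72 to 21.1 TPM. Neuron markers summed to 140 to 276 TPM over all libraries. Most of this was Map2 (125 to 250 TPM), with Tubb3 at 9.81 to 56.1 TPM. Rbfox3 stayed at or below 0.728 TPM, and Stmn2 and Slc17a7 stayed below 10 reads in every library. Endothelial markers stayed at or below 1.68 TPM in every library, and pericyte and fibroblast markers summed to 1.24 to 2.12 TPM in Ctr-OPCs, 1.82 to 4.16 in Dexa-treated OPCs and 5.49 to 7.71 in IFN-γ-treated OPCs. In bulk libraries, fewer cells of a type and less RNA per cell cannot be told apart.

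The receptors were read first by the form of the immunoglobulin-like domain nearest the membrane, since 2 mutually exclusive exons, called IIIb and IIIc, set which FGFs a receptor binds. IIIc is the form typical of mesenchymal and neural cells, and bFGF binds it well. IIIb and IIIc were taken as the first and second of the alternative exons that follow the same upstream exon. The IIIc exon of Fgfr3 is shown because Fgfr3 changed most among the receptors and nearly all of its informative reads came from transcripts that carry this exon. It is coding, is 145 bases long, and is given 5′ to 3′ on the gene's strand from GRCm38 with GENCODE release M21, with no capitals.
Fgfr3 IIIc, chr5:33732117-33732261, plus strand: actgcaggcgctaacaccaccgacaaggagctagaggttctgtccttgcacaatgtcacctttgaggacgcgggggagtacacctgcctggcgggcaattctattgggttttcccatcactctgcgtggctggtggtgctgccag
Of the reads that the authors' tool assigned to transcripts with exactly 1 of the forms, the IIIc form took 97.4% ± 2.49 for Fgfr1, 94.6% ± 3.93 for Fgfr2 and 98.6% ± 2.01 for Fgfr3 (mean ± SD, 11 libraries). These informative transcripts held 65.3% to 88.8% of a gene's reads. The IIIc share ranged from 91.5% to 99.6% for Fgfr1, from 87.0% to 98.6% for Fgfr2 and from 93.4% to 100% for Fgfr3, and the 3 groups overlapped for each receptor. Transcript shares are estimates by the quantification tool, and their estimation error was not analysed here.

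Levels were compared between genes only per length, in TPM. In Ctr-OPCs, Dusp6 (51.9 ± 18.3) and Etv5 (48.6 ± 7.56) were the most abundant of the 10 genes, followed by Spry2 (35.9 ± 15.6), Fgfrl1 (27.6 ± 3.16), Spred1 (25.6 ± 3.51), Fgfr1 (23.0 ± 9.44), Spry1 (22.6 ± 7.65), Fgfr3 (16.9 ± 9.46), Spry4 (14.3 ± 2.24) and Fgfr2 (3.63 ± 1.28; TPM, mean ± SD, n = 4). Neighbours in this order overlapped in their ranges, except that Spry4 lay above Fgfr2 in 4 of 4 Ctr libraries. Among the signalling receptors, Fgfr1 had the highest TPM within each Ctr library, although its range over the libraries overlapped that of Fgfr3. Fgfr1 held 48.5% to 61.8% of the summed TPM of Fgfr1, Fgfr2 and Fgfr3 in Ctr-OPCs. Fgfr3 took 30.3% to 43.5% and Fgfr2 took 6.12% to 11.5%.

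In IFN-γ-treated OPCs the make-up of the receptors was different. Fgfr1 held 67.1% ± 4.60 of the summed receptor TPM (n = 4), against 53.9% ± 5.91 in Ctr-OPCs (n = 4) and 54.7% ± 1.51 in Dexa-treated OPCs (n = 3). The IFN-γ values of the Fgfr1 share (60.7% to 71.1%) overlapped the Ctr values (48.5% to 61.8%) but not the Dexa values (53.4% to 56.3%). The Fgfr3 share was 24.8% ± 2.29 with IFN-γ, 37.4% ± 5.68 in Ctr-OPCs and 36.7% ± 4.35 with dexamethasone. The 4 IFN-γ values of the Fgfr3 share (22.9% to 28.0%) lay below all Ctr values (30.3% to 43.5%) and all Dexa values (32.4% to 41.1%). The Fgfr2 share stayed between 5.54% and 11.5% in all 11 libraries. These shares are given as a description, without a test.

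**Figure D1:**
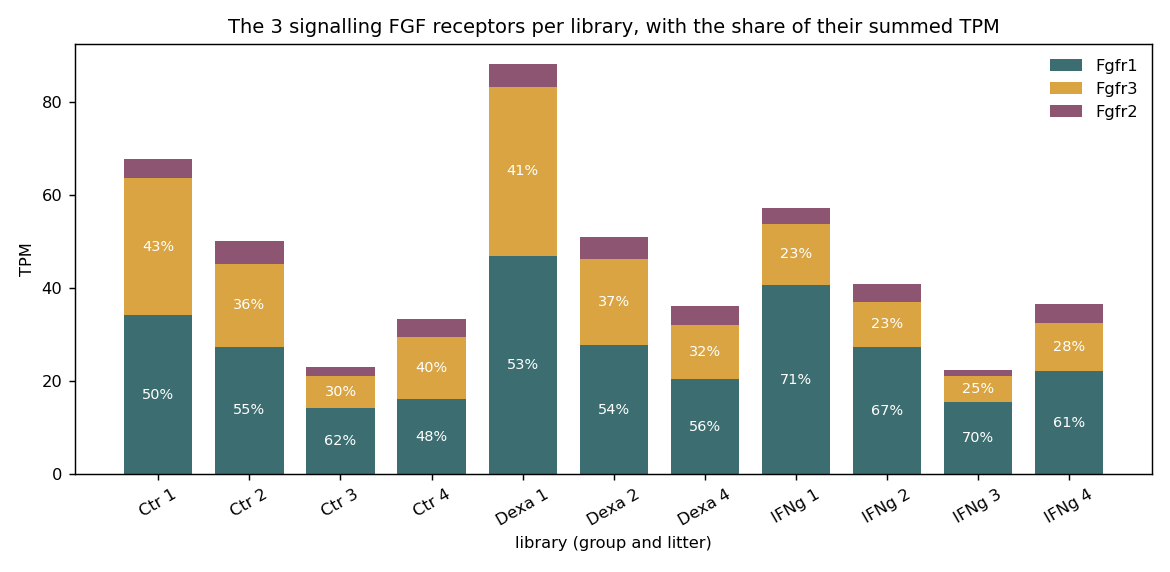
Level of Fgfr1 (bottom), Fgfr3 (middle) and Fgfr2 (top) in each of the 11 complete libraries, in TPM, with the share of their sum printed for Fgfr1 and Fgfr3. The Fgfr3 part is 30.3% to 43.5% in the Ctr libraries and 22.9% to 28.0% in the IFN-γ libraries.

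The first comparison asked whether IFN-γ changed the transcripts of FGF reception and feedback. In IFN-γ-treated OPCs the receptors Fgfr3 and Fgfr2 and the feedback genes Spry4 and Spred1 fell, while Fgfr1, Spry2, Dusp6 and Etv5 did not pass the test. With the litter as a term, 4 of 10 genes were called lower and 0 higher (DESeq2's Wald test, adjusted p under 0.05 after Benjamini-Hochberg correction over 17919 genes). In the same fit 29.2% of all tested genes were called, 14.1% as lower and 15.2% as higher, so calls were common among all genes too. The quasi-likelihood test of edgeR with the litter term called the same 4 genes and 31.3% of all. The median log2 difference of the 10 genes was -0.20, and that of all tested genes was -0.01. Without the litter term, DESeq2 and edgeR each called 0 of the 10 genes (2 and 1 at an unadjusted p under 0.05). DESeq2 then called 12.8% of all tested genes. The calls of these 4 genes against Ctr-OPCs thus rest on comparing libraries of the same replicate number.

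Fgfr3, a receptor that OPCs and astrocytes both express, moved most. Its normalized counts (counts divided by DESeq2's size factor of the library) in litters 1 to 4 were 4361, 2155, 924 and 1803 in Ctr-OPCs and 1403, 949, 700.5 and 1082 in IFN-γ-treated OPCs. Every litter was lower with IFN-γ, although the ranges of the groups overlapped and the Ctr litters lay far apart. The fitted level fell by 0.98 ± 0.16 on the log2 scale (SE), to 0.506 of Ctr-OPCs, with adjusted p = 5.25e-09 in DESeq2, 0.00107 in edgeR's quasi-likelihood test with the same litter term and 0.0609 in DESeq2 without it. The within-litter log2 differences were -1.64, -1.18, -0.40 and -0.74, so litters 1 and 2, with the most Fgfr3 in Ctr-OPCs, also had the largest drop. The Ctr count is the base of each difference, so a high Ctr value by itself enlarges the drop. Fgfr3 remained called when any 1 library was left out.

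Fgfr2 was the least abundant receptor and also fell. Its normalized counts in litters 1 to 4 were 598, 659, 222 and 521 in Ctr-OPCs and 365, 395, 190 and 422 in IFN-γ-treated OPCs. Litter 3 was low in both groups, and in each litter the treated library was below its control. In TPM litter 4 was instead higher with IFN-γ, at 4.13 against 3.82 in Ctr-OPCs. The fitted fall was 0.51 ± 0.12 on the log2 scale (DESeq2 adjusted p = 2.88e-04, edgeR 0.0041, DESeq2 without the litter term 0.365). Leaving out litter 2 in all groups ended the call (adjusted p = 0.0578 in DESeq2).

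Fgfr1, the most abundant signalling receptor, gave no such difference. Its normalized counts were 5107, 3533, 2290 and 2622 in Ctr-OPCs and 5257, 3181, 2688 and 2720 with IFN-γ, so 3 litters were higher and 1 was lower. The fitted log2 difference was 0.04, with a 95% interval of -0.10 to 0.19 and a DESeq2 adjusted p of 0.747. This interval bounds the fitted change on both sides but does not show that the level was the same. Leaving out litter 3 turned the sign, to -0.02.

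Fgfrl1, the receptor without a kinase domain, showed the tightest controls of the set. Its normalized counts were 2700, 2742, 2761 and 2659 in Ctr-OPCs and 2274, 2456, 2647 and 2180 in IFN-γ-treated OPCs. The groups did not overlap, which held for 5.66% of all tested genes in this direction. In TPM they did overlap (24.9 to 30.8 in Ctr-OPCs and 25.9 to 30.7 with IFN-γ). The fitted log2 difference of -0.19 ± 0.08 did not pass the test (DESeq2 adjusted p = 0.0834). It passed only when the Dexa libraries were taken out of the fit.

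Among the Sprouty genes, only Spry4 was called. Its normalized counts in litters 1 to 4 were 4183, 3815, 3162 and 2960 in Ctr-OPCs and 3560, 2967, 2888 and 2252 with IFN-γ. All 4 litters were lower, by 0.13 to 0.39 on the log2 scale, and the group ranges overlapped. In TPM litter 1 was instead higher with IFN-γ, at 16.1 against 15.4 in Ctr-OPCs. The fitted fall was 0.28 ± 0.07 (DESeq2 adjusted p = 4.66e-04, edgeR 0.00422, DESeq2 without the litter term 0.406). Spry1 had normalized counts of 3947, 3292, 1671 and 2239 in Ctr-OPCs and 2922, 2692, 1985 and 1679 with IFN-γ. Litter 3 moved against the other 3 litters, and the fitted log2 difference of -0.22 ± 0.11 did not pass (DESeq2 adjusted p = 0.103). It was called when the Ctr or the IFN-γ library of litter 3 was left out. Spry2 split by litter in normalized counts: 5924, 4297, 2174 and 2435 in Ctr-OPCs became 5096, 4215, 3245 and 3046 with IFN-γ. Litters 1 and 2 were lower by up to 0.22 on the log2 scale, and litters 3 and 4 were higher by 0.58 and 0.32. In TPM all 4 litters of Spry2 were higher with IFN-γ. The fitted log2 difference was 0.16 ± 0.11 (DESeq2 adjusted p = 0.308), and leaving out the IFN-γ library of litter 1 made it a call in the higher direction (adjusted p = 0.0267).

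Spred1, which brings neurofibromin to RAS, fell by a small amount in normalized counts but not in TPM. Normalized counts were 6757, 7429, 8095 and 7694 in Ctr-OPCs and 5486, 6623, 6571 and 7241 in IFN-γ-treated OPCs. Each litter was lower, although litter 4 with IFN-γ lay above litter 1 of Ctr-OPCs. In TPM, litters 1 to 4 were at 21.1, 27.1, 29.4 and 24.8 in Ctr-OPCs and 21.6, 29.4, 22.4 and 28.8 with IFN-γ. Only litter 3 was lower there, and the group means were 25.6 and 25.5 TPM. The fitted fall of 0.21 ± 0.07 had an adjusted p of 0.00712 in DESeq2, 0.012 in edgeR and 0.223 in DESeq2 without the litter term. The call was lost in 4 of the 11 fits that left out 1 library, without Ctr litter 1, 2 or 3 or IFN-γ litter 3, with a highest adjusted p of 0.101, and also without litter 3 in all groups.

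Dusp6 and Etv5, the members most often read as outputs of ERK, gave no call. Dusp6 had normalized counts of 7742, 5399, 2900 and 3550 in Ctr-OPCs and 6664, 4751, 3316 and 3380 with IFN-γ, and its log2 difference was -0.07 ± 0.09 (DESeq2 adjusted p = 0.62). Etv5 had 11272, 10837, 9240 and 8263 in Ctr-OPCs and 10578, 9631, 10101 and 8974 with IFN-γ. Its fitted log2 difference lay between -0.16 and 0.16 (95% interval; DESeq2 adjusted p = 0.991). In 5 of the 10 genes, namely Fgfr2, Fgfr3, Fgfrl1, Spry4 and Spred1, all 4 litters were lower with IFN-γ in normalized counts. None was higher in all 4 by that measure. Of all tested genes, 23.4% were lower in all 4 litters in normalized counts. In TPM, Fgfr3 alone of these 5 genes was lower in all 4 litters, while Spry2, Dusp6 and Etv5 were each higher in all 4. Mean TPM in Ctr-OPCs and with IFN-γ was 35.9 and 43.5 for Spry2, 51.9 and 57.8 for Dusp6, and 48.6 and 54.3 for Etv5. The share of all genes that were higher in all 4 litters in TPM was not counted.

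**Figure D2:**
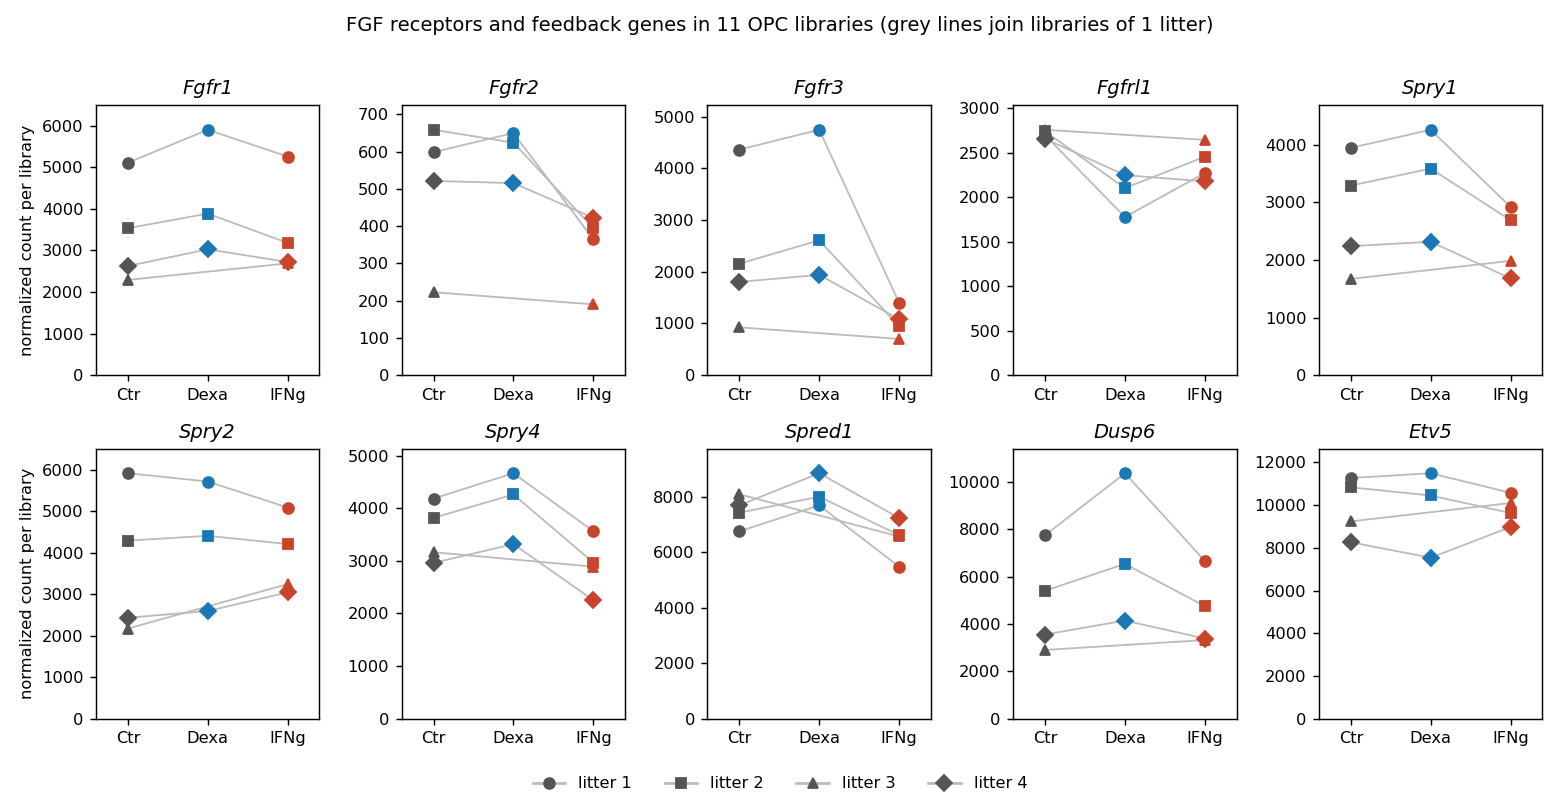
Normalized counts of the 10 genes in the 11 complete libraries, by group (Ctr grey, Dexa blue, IFNg red). Marker shapes show the litter and grey lines join libraries of 1 litter, and each vertical axis starts at 0. For Fgfr3 all 4 lines end lower in IFNg than in Ctr, from 924 to 4361 down to 700.5 to 1403, and for Fgfr1 litter 1 is the highest and litter 2 the next in every group.

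Markers moved with IFN-γ as well, in a fit that called 14.1% of all tested genes lower and 15.2% higher. Of the 12 OPC markers 9 were called lower and 0 higher, with a median log2 difference of -0.57, and of the 12 markers of committed and myelinating oligodendrocytes 5 were called lower and 0 higher. Without the litter term DESeq2 called 1 and 2 of them. Among 9 tested astrocyte markers 5 were called higher and 3 lower, and 2 were called without the litter term. Gfap, the intermediate filament of reactive astrocytes, rose by 4.10 ± 0.34 on the log2 scale from a mean normalized count of 20.2 ± 15.0 (DESeq2 adjusted p = 2.09e-32). Aldoc rose by 0.88 ± 0.15 (DESeq2 adjusted p = 2.16e-08, 0.0399 without the litter term), and Aldh1l1 was also called higher. The water channel Aqp4 fell by 0.81 ± 0.18 (adjusted p = 5.23e-05) and the calcium-binding protein S100b by 1.53 ± 0.14 (adjusted p = 5.51e-28), with 0.208 and 0.273 without the litter term. Of 7 tested neuron markers 2 were called higher and 3 lower: the tubulin gene Tubb3 rose by 1.52 ± 0.16 and the synaptic vesicle gene Syt1 by 1.11 ± 0.18, while Dcx, Snap25 and Gad1 fell. Of 7 tested pericyte and fibroblast markers 2 were called higher and 0 lower, the actin gene Acta2 by 2.33 ± 0.23 and the matrix gene Lum by 4.18 ± 0.46. The part of these shifts in the fall of Fgfr3, Fgfr2, Spry4 and Spred1 was not tested.

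The second comparison asked the same of dexamethasone. The kinase-less receptor Fgfrl1 fell and the ERK phosphatase Dusp6 rose in Dexa-treated OPCs, and the other 8 genes did not pass. With the litter term, 2 of 10 genes were called, 1 lower and 1 higher, where DESeq2 called 2.57% of all tested genes (0.513% lower and 2.05% higher). With edgeR 1 of the 10 and 1.57% of all were called, and with DESeq2 without the litter term 1 of the 10 and 0.547% of all. The median log2 difference was 0.16 for the 10 genes and -0.00 for all tested genes. Only 3 complete Dexa libraries, of litters 1, 2 and 4, entered this fit. Some markers rose with dexamethasone as well: the astrocyte markers Aldoc (log2 difference 0.98 ± 0.16, DESeq2 adjusted p = 2.86e-07, edgeR 0.0163) and Gfap (1.64 ± 0.38, 0.00119, edgeR 0.108), which were 2 of 9 tested, and 1 of 12 OPC markers, Cspg4 (0.65 ± 0.10, 1.02e-08, edgeR 0.00468). The neuron marker Snap25 (0.67 ± 0.14) and the endothelial marker Flt1 (1.01 ± 0.22) were also called higher, and 0 of 12 markers of committed and myelinating oligodendrocytes were called by DESeq2 or edgeR (1 at an unadjusted p under 0.05). The part of these shifts in the calls of Fgfrl1 and Dusp6 was not tested.

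Fgfrl1 had normalized counts of 1779, 2105 and 2250 in Dexa-treated OPCs of litters 1, 2 and 4. All 3 lay below the 4 Ctr libraries (2659 to 2761), a separation that 1.68% of all tested genes had in this direction. The fitted fall was 0.39 ± 0.10 on the log2 scale, to 0.765 of Ctr-OPCs, with adjusted p = 0.00343 in DESeq2, 0.0458 in edgeR, 0.0179 in DESeq2 without the litter term and 0.341 in edgeR without it. Within litters it fell by 0.60, 0.38 and 0.24, and 22.9% of all tested genes were lower in all 3 litters. The call held in 6 of 11 fits that left out 1 library and was lost without Ctr litter 1, 2 or 4 or Dexa litter 1 or 2, where adjusted p reached 0.329.

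Dusp6 had normalized counts of 10361, 6533 and 4141 in Dexa-treated OPCs, against 7742, 5399 and 3550 in Ctr-OPCs of the same litters. It was higher in 3 of 3 litters, by 0.42, 0.28 and 0.22 on the log2 scale, while the group ranges overlapped widely. The fitted rise was 0.35 ± 0.10, or 1.28-fold, with adjusted p = 0.0142 in DESeq2, 0.0703 in edgeR and 1 in DESeq2 without the litter term. The call was lost without the same 5 libraries as for Fgfrl1. Dusp6 is 1 of the 3 members that the incomplete table of Dexa litter 3 lists whole. With sizes set over the genes listed whole in all 12 libraries, its normalized counts in litter 3 were 2738 in Ctr-OPCs and 3700 with dexamethasone, and the fitted rise over 12 libraries was 0.34 ± 0.08 (DESeq2 adjusted p = 0.0026).

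The other receptors and feedback genes gave no call. Fgfr1 (3026 to 5901 normalized counts with dexamethasone), Fgfr3 (1939 to 4745), Spry1 (2317 to 4261), Spry4 (3316 to 4664) and Spred1 (7694 to 8855) were each higher than Ctr-OPCs in 3 of 3 litters, by at most 0.27 on the log2 scale. Together with Dusp6 this made 6 of 10 genes higher in all 3 litters, against 21% of all tested genes. Their DESeq2 adjusted p-values were 0.228, 0.794, 0.822, 0.326 and 0.512. Fgfr2, Spry2 and Etv5 had fitted log2 differences of 0.05, 0.09 and -0.03. Over 12 libraries Spry2 and Etv5 were not called either.

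The glucocorticoid receptor binds palindromic sites, and Etv5 belongs to the ETS family. Promoter windows of 300 bases (RefSeq, GRCm38.p6, 250 before the start and 50 after) were searched on both strands for the core of the glucocorticoid response element (ACANNNTGT) and for the ETS letters CCGGAAG. Windows of 8 of the 10 genes were searched, not those of Fgfr1 and Spry4. The glucocorticoid core was in the window of Dusp6 alone, 102 bases before the start, and in 6.85% of all 32851 windows. The ETS letters were in that of Fgfrl1 alone, 48 bases before the start, and in 8.86% of all windows. The windows of Dusp6 and Fgfrl1 are shown because these genes changed with dexamethasone, with the matched letters in capitals.
Dusp6, chr10:99262981-99263280, plus strand: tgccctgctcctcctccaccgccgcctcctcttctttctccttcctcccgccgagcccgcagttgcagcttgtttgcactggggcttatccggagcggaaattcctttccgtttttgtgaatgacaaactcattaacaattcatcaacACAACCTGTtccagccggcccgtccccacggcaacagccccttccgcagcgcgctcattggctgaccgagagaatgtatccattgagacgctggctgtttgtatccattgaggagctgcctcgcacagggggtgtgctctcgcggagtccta
Fgfrl1, chr5:108693979-108694278, plus strand: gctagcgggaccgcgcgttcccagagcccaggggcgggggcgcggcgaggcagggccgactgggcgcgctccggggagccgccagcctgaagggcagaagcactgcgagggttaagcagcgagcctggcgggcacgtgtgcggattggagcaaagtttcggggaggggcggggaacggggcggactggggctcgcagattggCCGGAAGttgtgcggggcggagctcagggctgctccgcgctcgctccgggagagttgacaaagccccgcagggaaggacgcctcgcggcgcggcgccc
A match of these letters is a description and not a bound site, and the windows cover only sequence next to the start.

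The treatments were also set directly against each other, which tests whether the 2 responses differed. IFN-γ-treated OPCs had less Fgfr3, Fgfr2, Spry4, Dusp6, Spry1 and Spred1 than Dexa-treated OPCs. These 6 of 10 genes were called lower and 0 higher, where DESeq2 called 31.6% of all tested genes, 15.4% lower and 16.2% higher. By edgeR with the litter term the same 6 genes and 33.7% of all were called. The fitted log2 differences were -1.24 ± 0.17 for Fgfr3 (DESeq2 adjusted p = 2.34e-11), -0.56 ± 0.14 for Fgfr2 (3.33e-04), -0.46 ± 0.08 for Spry4 (5.26e-08), -0.42 ± 0.10 for Dusp6 (1.02e-04), -0.39 ± 0.12 for Spry1 (0.00471) and -0.36 ± 0.08 for Spred1 (1.10e-05). In normalized counts each of the 6 was lower in 3 of 3 litters, as 29.3% of all tested genes were. Each remained called when any 1 library was left out. In TPM, litter 4 of Fgfr2 (4.13 with IFN-γ and 4.08 with dexamethasone) and litter 2 of Spred1 (29.4 and 25.9) were instead higher with IFN-γ. Leaving out a litter in all groups ended the call of Spry1 without litter 1, 2 or 4 (highest adjusted p = 0.13 in DESeq2) and that of Fgfr2 without litter 1 (0.0536). Fgfr3, Fgfr2 and Spred1 had groups that did not overlap in normalized counts, against 8.77% of all tested genes in this direction. In TPM the groups overlapped for each of these genes. The TPM ranges with IFN-γ and with dexamethasone were 5.51 to 13.1 and 11.7 to 36.2 for Fgfr3. They were 1.26 to 4.13 and 4.08 to 4.88 for Fgfr2, and 21.6 to 29.4 and 25.9 to 29.8 for Spred1. Without the litter term DESeq2 kept Fgfr3 (adjusted p = 0.00947) and Spred1 (0.031), among 13.1% of all tested genes, and edgeR kept none. Fgfrl1 went the other way without a call (log2 difference 0.20 ± 0.10, adjusted p = 0.103 in DESeq2).

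**Figure D3:**
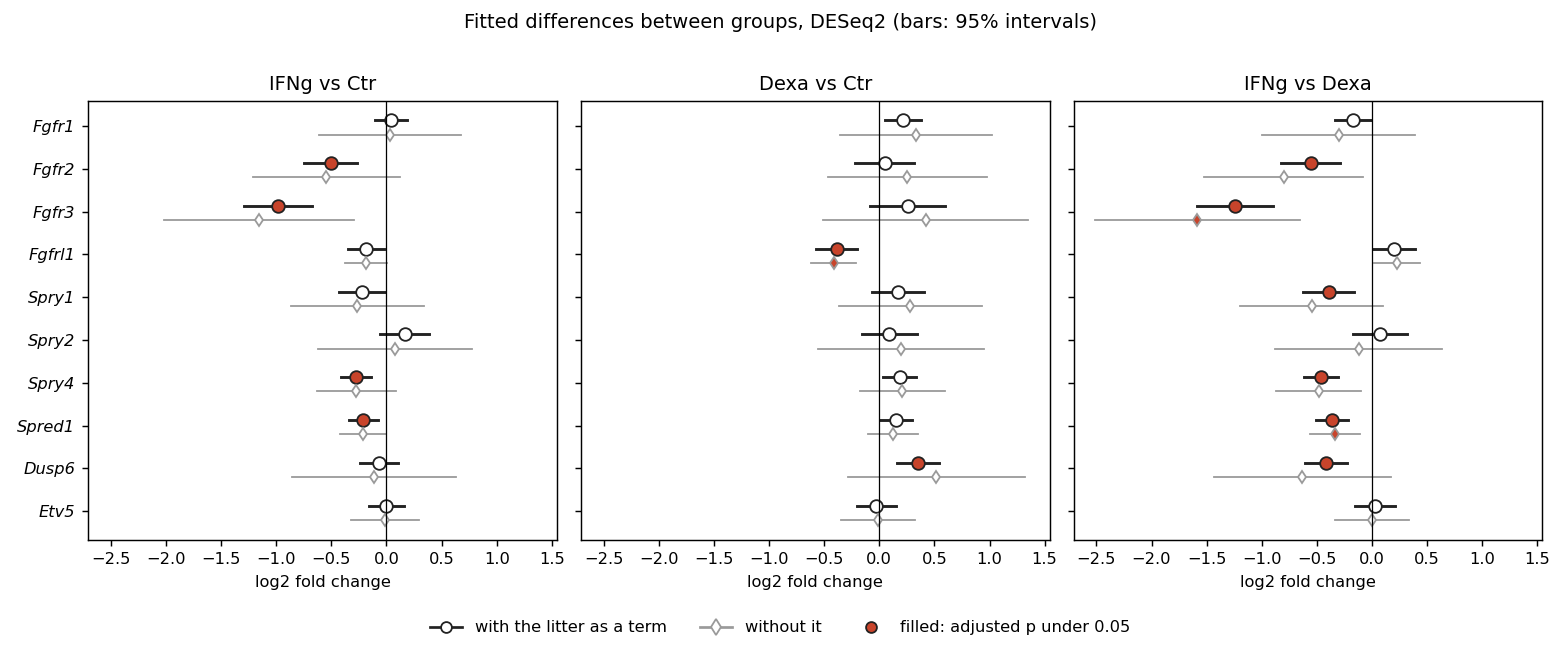
Fitted log2 fold changes of the 10 genes in the 3 comparisons, with 95% intervals, from DESeq2 with the litter as a term (circles) and without it (diamonds). Filled symbols have an adjusted p under 0.05. The intervals without the litter are wider, and with IFN-γ against Ctr none of the diamonds is filled, while Fgfr2, Fgfr3, Spry4 and Spred1 are filled circles.

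Most of these genes differed more between litters than between treatments. For Fgfr1 the litter took 94.6% of the variance of log2 normalized counts over 11 libraries, for Spry2 90.2%, for Dusp6 88.9%, for Etv5 82.8% and for Spry1 81.5%. These 5 of 10 genes passed 80%, as 15.5% of all tested genes did, and the median over all tested genes was 49.6%. Fgfrl1 and Spred1 were the exceptions, with litter shares of 24.7% and 29.7% and treatment shares of 59.7% and 63.5%. Shares were taken in order, litter before treatment.

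In Ctr-OPCs litters 1 and 2 lay above litters 3 and 4, which share a prefix in their sample titles, for every gene but Fgfrl1 and Spred1. The widest gap did not always lie between these pairs: for Fgfr3 litter 1 stood far above the other 3, and for Fgfr2 litter 3 alone was low. In Ctr-OPCs the mean of litters 1 and 2 over that of litters 3 and 4 was 2.39 for Fgfr3, 2.22 for Spry2, 2.04 for Dusp6, 1.85 for Spry1, 1.76 for Fgfr1, 1.69 for Fgfr2, 1.31 for Spry4 and 1.26 for Etv5. It was 1.00 for Fgfrl1 and 0.898 for Spred1. With IFN-γ the ratio of Fgfr3 was 1.32 and that of Spry2 was 1.48, and litter 4 lay above litter 2 for Fgfr3 and was the highest for Fgfr2. Markers differed between the same litters: in Ctr-OPCs of litters 1 to 4 the markers of committed and myelinating oligodendrocytes summed to 89.7, 265, 451 and 572 TPM, and the astrocyte markers to 325, 307, 156 and 213 TPM. What the title prefix stands for is not stated, and the part of these marker levels in the litter differences was not tested.

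**Figure D4:**
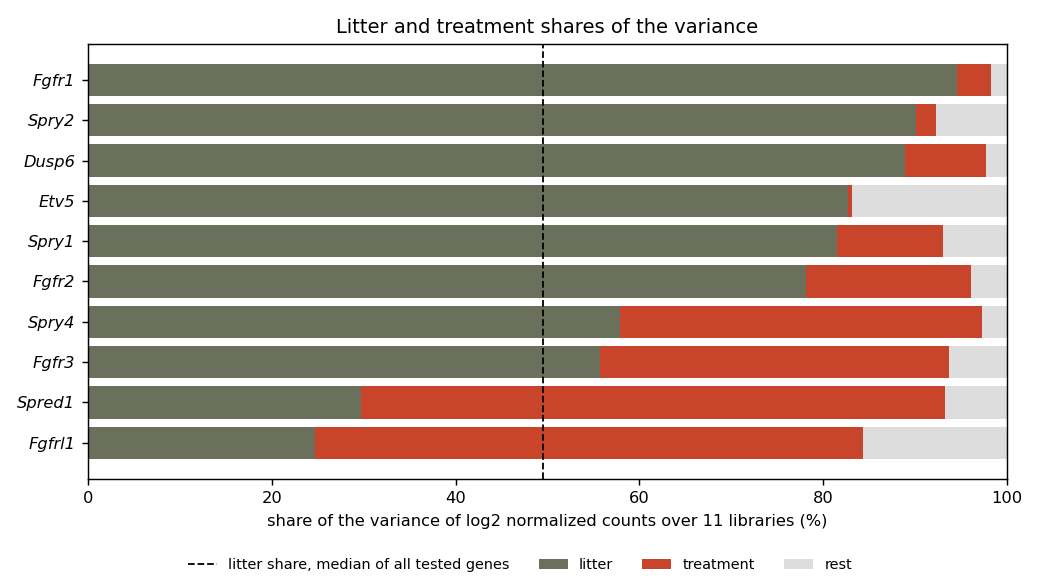
Share of the variance of log2 normalized counts over 11 libraries that went with the litter, then with the treatment, and the rest, for each of the 10 genes. The dashed line is the median litter share of all tested genes (49.6%), which 8 of the 10 genes exceed.

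Across the 11 libraries the log2 levels of several members ran together. Pearson's r was 0.971 between Fgfr1 and Dusp6, 0.953 between Spry1 and Dusp6, 0.919 between Fgfr1 and Spry2 and 0.913 between Spry2 and Dusp6, and Fgfrl1 and Spred1 correlated with Dusp6 at -0.55 and -0.21. These are descriptions over libraries that share litters and treatments. Of the 12156 genes with a mean normalized count of at least 100, the one most like Fgfr1 was Ppp5c (r = 0.994), the one most like Fgfr3 was Fgd6 (0.987), the one most like Fgfr2 was Itga6 (0.983), and those most like Dusp6 were Igfbp3 and Srebf1 (0.984 each). Histone genes led by Hist1h2bc (0.992) were most like Spry2.

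The rest of the pathway was described from lists of genes by role. Their counts of calls are to be set beside those of all tested genes. DESeq2 with the litter term called 14.1% of these lower and 15.2% higher with IFN-γ, and 0.513% and 2.05% with dexamethasone. Of 18 FGF ligands, 3 passed the filter on low counts, and Fgf1, which binds all FGF receptors, fell with IFN-γ by 0.87 ± 0.13 on the log2 scale (DESeq2 adjusted p = 3.29e-10, 0.236 without the litter term). Mean normalized counts of Fgf1 were 364 ± 181 in Ctr-OPCs and 199 ± 92.4 with IFN-γ. Fgf2, the cells' own gene for bFGF, had a mean of 79.2 in Ctr-OPCs and was not called.

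Among 13 tested co-receptors and FGF-binding proteins, 6 were called lower and 3 higher with IFN-γ, and 5 were called without the litter term. The FGF receptor partners Flrt1 and Flrt2 fell most clearly: Flrt2 fell by 1.15 ± 0.08 (DESeq2 adjusted p = 4.04e-45), from a mean normalized count of 1588 ± 537 to 712 ± 215, and remained called without the litter term (0.00431). Flrt1 dropped from 349 ± 155 to 80.5 ± 34.2. The adhesion molecule Ncam1, which can bind FGF receptors, fell by 0.82 ± 0.07 (adjusted p = 1.27e-26, 0.0589 without the litter term). The syndecan Sdc1, a heparan sulfate carrier, rose by 0.55 ± 0.11 (2.03e-06, 0.206 without it). With dexamethasone 1 of the 13 was called: the syndecan Sdc4 rose by 1.31 ± 0.14 (DESeq2 adjusted p = 4.02e-18, edgeR 9.37e-04, 0.27 without the litter term).

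Of the relay from receptor to ERK, 4 of 23 genes were called higher and 4 lower with IFN-γ, near the shares of all tested genes (15.2% higher and 14.1% lower), and 2 without the litter term. With dexamethasone 0 of 23 were called (1 at an unadjusted p under 0.05, and 0 called by edgeR). The RAS gene Nras rose by 0.45 ± 0.07 (DESeq2 adjusted p = 4.09e-10) and the ERK kinase gene Map2k1 by 0.42 ± 0.08 (1.77e-06, 0.18 without the litter term). The scaffold gene Ksr1 fell by 0.41 ± 0.09 (2.12e-05).

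Of 20 other brakes on RAS and ERK, 7 were called lower with IFN-γ and 0 higher, against 14.1% and 15.2% of all tested genes. Without the litter term 2 were called. The list median was -0.07, near that of all tested genes (-0.01), so the list as a whole moved little. Spry3 fell by 0.66 ± 0.10 (DESeq2 adjusted p = 2.73e-09, 0.50 without the litter term), the adaptor Sh2b3 by 0.58 ± 0.11 (2.65e-06) and the ERK phosphatase Dusp7 by 0.43 ± 0.09 (3.52e-05, 0.154 without it). The phosphatase Dusp9 was low, with a mean normalized count of 83.3 ± 75.8 in Ctr-OPCs and 6.43 ± 5.46 with IFN-γ (adjusted p = 1.21e-12). With dexamethasone 1 of 20 was called, the EGF receptor inhibitor Errfi1, which rose by 0.34 ± 0.10 (adjusted p = 0.0398, edgeR 0.0522).

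Other ERK-responsive transcription factors and early genes rose with IFN-γ where they were called, 10 of 19 higher and 0 lower, with a list median of 0.32, and 5 were called without the litter term. Jun rose by 1.56 ± 0.10 (DESeq2 adjusted p = 8.56e-49), Egr2 by 1.65 ± 0.23 (1.66e-11), Fos by 1.13 ± 0.16 (1.98e-11) and the cyclin gene Ccnd1 by 0.78 ± 0.07 (2.51e-27). Jun, Egr2 and Fos were also called without the litter term, and Ccnd1 was not (0.146). The list's median is on the other side of 0 from that of the receptors and feedback genes (-0.20). Etv1 and Etv4, the closest relatives of Etv5, had log2 differences of -0.04 and -0.12 and were not called with IFN-γ. With dexamethasone Egr1 rose by 0.55 ± 0.14 (adjusted p = 0.00669, edgeR 0.0734) and Etv1 by 0.28 ± 0.07 (0.00496, edgeR 0.0308), and the ETS factor Elk3 fell by 0.39 ± 0.12 (0.0492, edgeR 0.115).

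Of 14 receptors for other growth factors, 6 were called lower and 3 higher with IFN-γ, and 2 were called without the litter term. Erbb4 had the smallest adjusted p of the list and fell by 0.60 ± 0.08 (DESeq2 adjusted p = 7.63e-14, 0.492 without the litter term). Pdgfra, the receptor for the PDGFaa in the medium, fell by 0.61 ± 0.14 (DESeq2 adjusted p = 1.03e-04, edgeR 0.00972, 0.581 without the litter term). The neurotrophin receptor Ntrk2 fell by 0.48 ± 0.08, and Met, the receptor for hepatocyte growth factor, rose from a mean normalized count of 7.16 ± 1.55 to 32.3 ± 7.83 (adjusted p = 3.13e-05). With dexamethasone DESeq2 called 2 of 14 lower, Erbb2 (adjusted p = 0.0191) and Egfr (0.035), and edgeR called neither (0.0993 and 0.208). The only call of edgeR in this list was Erbb3, in the higher direction (adjusted p = 0.0435, DESeq2 0.105).

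**Figure D5:**
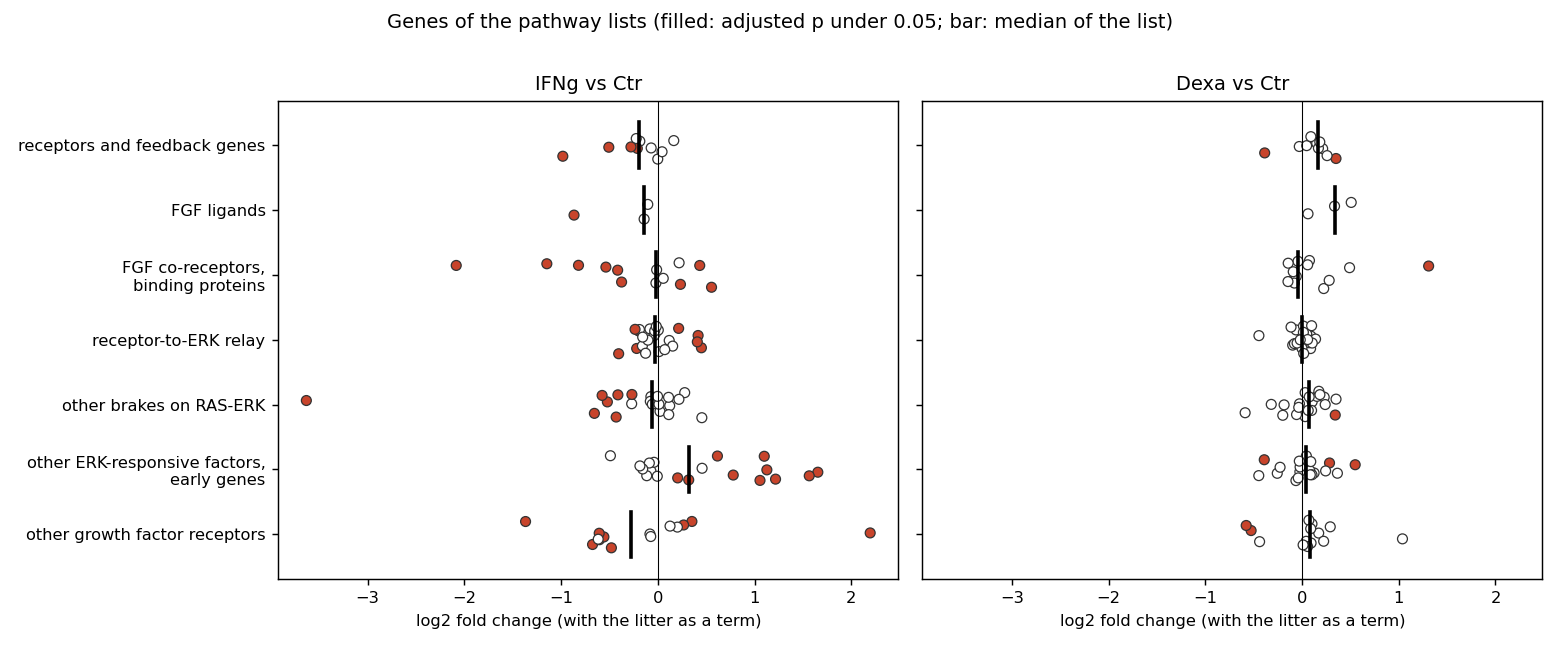
Fitted log2 fold changes of the 10 receptor and feedback genes and of 6 further pathway lists, for IFNg against Ctr (left) and Dexa against Ctr (right). Each point is a gene, filled where its adjusted p was under 0.05, and the bars are list medians. With IFN-γ the median is -0.20 for the receptors and feedback genes and 0.32 for the other ERK-responsive factors and early genes.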

How the data were processed

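Stranded total RNA-seq libraries of 12 OPC cultures were used as the authors quantified them. The authors ran Salmon 0.8.2 on a transcriptome, and the deposited tables give an estimated count and a TPM value per transcript. All 141862 transcript identifiers matched GENCODE M21 on GRCm38. The authors' 3 tables of DESeq2 results were not used. Here, estimated counts were summed per gene and rounded, and a gene was tested where 4 or more of the 11 libraries held 10 or more counts (17919 genes). The table of Dexa replicate 3 stopped after 47855 transcripts, so it entered only a fit over the genes it lists whole.

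The test was DESeq2 1.42.0 (Wald, group plus replicate number, all 3 groups, Benjamini-Hochberg, calls at an adjusted p under 0.05) in R 4.3.3. It was also run on simulated counts. These were drawn from a model with the same litter term, so that run cannot show whether the term is right. The design took the number as a term because the labels tie replicates to different litters, although they do not say that equal numbers share a litter. Deviations from the group means correlated at 0.404 to 0.721 in 10 pairs of libraries with the same number and at -0.613 to 0.493 in 30 pairs with different numbers. Alternatives were edgeR 4.0.16, fits without the replicate term, other size factors, no filter, the 2 groups alone, and fits without 1 library or without 1 litter, of which the last was chosen after seeing the data. Counting error and litter spread set the precision, and PCR copies were not told apart. Within-litter log2 differences used a pseudocount of 0.5. All 10 members were named. From each further list some of the up to 5 called genes with the smallest adjusted p were named, not always all of them, besides genes named as values beside a member. The members and lists were chosen with earlier results of these data known.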

Additional observations from a re-analysis of the deposited data

How the results depend on the processing

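The replicate term decided most calls. Without the replicate block DESeq2 called 0, 1 and 2 of the 10 genes for IFN-γ against Ctr, Dexa against Ctr and IFN-γ against Dexa, and 12.8%, 0.547% and 13.1% of all tested genes, while edgeR without the block called 0, 0 and 0 of the 10 and 8.44%, 0.123% and 8.77% of all. The pairing of the libraries by number is given with the processing. For Dexa against Ctr, edgeR with the block called 1 of the 10 and 1.57% of all genes, and the fit of the 2 groups alone called 4 of the 10 and 5.73% of all. For IFN-γ against Dexa the 2 groups alone gave 19.9% of all genes. With no filter on low counts the shares of all genes were 15.4%, 1.32% and 16.6%. Leaving out 1 library gave 0 to 2 of the 10 genes and 1.06% to 3.02% of all for Dexa against Ctr, 3 to 5 and 20.8% to 28.5% for IFN-γ against Ctr, and 6 to 7 and 20.8% to 29.6% for IFN-γ against Dexa. Leaving out 1 litter in all groups gave 0 to 2 of the 10 for Dexa against Ctr, with 1.45% of all without litter 1 and 0.988% without litter 2, 3 to 4 of the 10 for IFN-γ against Ctr, and 4 to 7 for IFN-γ against Dexa, with 19.5% of all without litter 2. The Dexa calls depended on Ctr litters 1, 2 and 4 and Dexa litters 1 and 2. TMM factors and size factors from protein-coding genes changed no call among the 10 genes.

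Signs turned only where no call was made. For IFN-γ against Ctr, fits without 1 library ranged from -0.0208 to 0.0986 on the log2 scale for Fgfr1 (-0.0193 without litter 3) and from -0.0607 to 0.0534 for Etv5 (0.0305 without litter 1, 0.054 without litter 2), which was at 0.000297 in edgeR and 0.000208 with TMM factors. For Dexa against Ctr they ranged from -0.0403 to 0.126 for Fgfr2 (-0.00878 without litter 1) and from -0.0802 to 0.052 for Etv5 (0.0316 without litter 4). For IFN-γ against Dexa they ranged from -0.00142 to 0.198 for Spry2 (-0.00117 without litter 3) and from -0.0585 to 0.0906 for Etv5 (-0.0781 without litter 4). Without the block Spry2 was at -0.122 in DESeq2 and -0.118 in edgeR and Etv5 at -0.00151, and with the 2 groups alone Spry2 was at -0.00551. In normalized counts per kilobase in place of TPM, neighbours swapped in the Ctr order: Etv5 came to 1 and Dusp6 to 2, Spry1 to 6 and Fgfr1 to 7, Spry4 to 8 and Fgfr3 to 9. Where a cause is not part of the alternative itself, the cause was not tested.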
